A study of Mus musculus with 16 samples.

Results

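RNA from a pull-down of ribosomes, labelled as those of striatal astrocytes, was compared with RNA of the whole striatum in mice whose astrocytes expressed bARK. The comparison used 8 of the series' 16 libraries, chosen by construct and fraction as labelled: 4 precipitates (bARK IP) and 4 cleared lysates (bARK input). bARK is a peptide from the β-adrenergic receptor kinase that attenuates signalling through Gq. The mice were 9-week-old C57BL/6J males of wild-type genotype, and the other 8 libraries, 4 bARK(D110A) IP and 4 bARK(D110A) input, came from mice of the same strain, sex and age. bARK(D110A) is the same peptide with 1 residue of its Gq-binding region replaced, and it serves here only for a test of the difference in enrichment. All IP libraries share the hemagglutinin (HA) tag through which ribosomes, labelled as those of astrocytes, were pulled down. The labels place the expression in astrocytes, but the promoter, the vector and the carrier of the tag are not given in the sources used. The libraries of a construct are numbered 1 to 4 in both fractions, and the same number was read as the same mouse. The labels do not say that each number is a separate animal, so the p-values may reflect technical spread alone.

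In a pull-down of this type, 1 cell type carries a ribosomal protein with an epitope tag, and an antibody to the tag recovers ribosomes with the messenger RNAs they are translating. A messenger RNA made mainly by the tagged cells is then enriched over the lysate, one made by other cells is depleted, and an RNA that is not translated is depleted whatever its cell. Astrocytes are the glial cells that take up glutamate and potassium, hold the brain's glycogen, supply lipoproteins and contact vessels with their endfeet. Striatal tissue otherwise consists mainly of spiny projection neurons, with interneurons, oligodendrocytes, microglia and vessels.

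Depth spanned 41469718 to 47157883 counted reads in bARK IP libraries and 27807178 to 38003523 in bARK input libraries. The first principal component of the 8 libraries held 86.1% of the variance and separated the fractions, while the second held 3.46%. Levels are given in CPM, read counts scaled to a common library total after adjustment by the trimmed mean of M values (TMM), and lists of 4 values run from replicate 1 to replicate 4. CPM depends on transcript length, so levels are compared between libraries and not between genes. Each ± after a log2 fold change is its standard error in the edgeR fit, and each adjusted p is from edgeR's quasi-likelihood test, adjusted by Benjamini-Hochberg across the 15850 genes tested. In bulk RNA of this kind, fewer cells of a type and less RNA per cell cannot be told apart.

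Most of the measured transcriptome differed between IP and input. Of 15850 genes tested, 5966 were higher in bARK IP (37.6%) and 6044 were lower (38.1%), so 75.8% passed the threshold of 0.05, and any count for a group of genes has to be read against that share. Without normalisation beyond library size, 4806 genes were higher and 7333 lower, which put 39.6% of the calls on the higher side instead of 49.7%, and the log2 fold changes moved on median by -0.14. The median log2 fold change over all genes tested was -0.01. TMM scaling assumes that most genes do not differ and so centres the fold changes near 0. Neither this median nor the near-even split of the calls is therefore a result of its own. The range was lopsided: 10 genes were called at least 8-fold higher, whereas 386 were called at least 8-fold lower and 37 at least 32-fold lower. The 4 IP libraries all lay above the 4 input libraries in 36.1% of the genes tested and all below them in 35.8%.

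Rpl22, a protein of the large ribosomal subunit, is often the one tagged in such pull-downs (chromosome 4, 152324436 to 152334082). Its level was 372, 421, 299 and 340.3 CPM in bARK IP, against 103, 91.4, 77.05 and 92.7 CPM in bARK input. Every IP library lay above every input library, and the log2 fold change was 1.98 ± 0.11 (adjusted p = 6.09e-11). Whether reads came from a tagged Rpl22 or the mouse's own gene cannot be told. Its close paralog Rpl22l1 (chromosome 3, 28805508 to 28807424) went the opposite way, with 4.22, 4.57, 4.28 and 3.71 CPM in IP, against 10.1, 9.22, 11.2 and 10.9 CPM in input. The groups again did not overlap, and the log2 fold change of Rpl22l1 was -1.31 ± 0.11 (adjusted p = 9.79e-09). Adrbk1, the kinase gene from which the peptide derives, had 114, 110.3, 97.2 and 134 CPM in IP, against 83.5, 86.05, 96.8 and 97.3 CPM in input. The groups overlapped in Adrbk1, whose log2 fold change was 0.32 ± 0.09 (adjusted p = 0.00416), and it did not pass with library size as the only scaling.

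All 18 astrocyte markers were higher in IP, with a median log2 fold change of 2.56 and no overlap between the groups in any of them. Aldh1l1, a folate enzyme and astrocyte marker (chromosome 6, 90550768 to 90599171), had 426, 497, 490.0 and 466 CPM in IP, against 69.1, 67.3, 71.6 and 69.7 CPM in input. All 4 IP libraries were several times above the highest input library, a log2 fold change of 2.76 ± 0.06 (adjusted p = 2.87e-15). The markers did not all move by the same amount. Gfap, an intermediate filament protein, was at the top with 1236, 1136, 1497 and 1534 CPM in IP, against 184, 135, 169 and 184 CPM in input (log2 fold change 3.01 ± 0.32, adjusted p = 1.23e-06). Slc4a4, a sodium bicarbonate cotransporter, was at the bottom with 1091, 1269, 1148 and 1055 CPM in IP, against 630.4, 616, 568 and 612 CPM in input (0.91 ± 0.06, adjusted p = 1.60e-10). S100b, a calcium-binding protein also made by oligodendrocytes, lay nearer to Slc4a4 at 1.64 ± 0.11, and Hepacam, a cell adhesion protein, at 1.92 ± 0.07. The glutamate transporters Slc1a3 and Slc1a2 lay at 2.61 ± 0.06 and 2.56 ± 0.09. IP replicate 2 held the highest value in 16 of the 18 markers.

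Of the 15 largest rises, 4 were in the astrocyte marker list and others were not. Pm20d1, a secreted enzyme that joins fatty acids to amino acids, had 18.3, 18.7, 16.2 and 17.7 CPM in IP, against 2.81, 1.95, 2.08 and 2.40 CPM in input (log2 fold change 2.94 ± 0.11, adjusted p = 4.56e-13). Dcxr, a reductase of dicarbonyls and L-xylulose, reached 86.3, 88.3, 81.6 and 85.3 CPM in IP, against 14.99, 9.91, 9.19 and 10.7 CPM in input (2.93 ± 0.14). Eda2r, a receptor for ectodysplasin A2, had 35.8, 41.7, 38.6 and 46.3 CPM in IP, against 7.18, 4.70, 4.13 and 7.29 CPM in input (2.80 ± 0.16). In all 3 genes, the lowest IP library lay above the highest input library. Pla2g7, the secreted hydrolase of platelet-activating factor, was higher by 2.70 ± 0.08, and the markers Acsbg1, an acyl-CoA synthetase, and Aqp4, a water channel, by 2.77 ± 0.07 and 2.72 ± 0.10. Chrdl1, a secreted antagonist of bone morphogenetic proteins, was second to Gfap, with 100.4, 124, 92.7 and 94.5 CPM in IP, against 15.6, 12.3, 11.7 and 13.3 CPM in input (2.96 ± 0.13, adjusted p = 1.58e-11).

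Another part of the largest rises differed strongly between mice. Gbp2 and Gbp10 are interferon-induced guanylate-binding proteins, Ifit3 and I830012O16Rik belong to the interferon-induced tetratricopeptide family, whose members resemble one another closely enough that the counting could split reads between them, and Serpina3n is a serine protease inhibitor of reactive astrocytes. Gbp2 had 105, 135, 374 and 237 CPM in IP, against 23.3, 16.8, 48.6 and 34.1 CPM in input. Mouse 3 was highest and mouse 4 second in both fractions, and the within-mouse log2 ratios were 2.16, 3.004, 2.94 and 2.80. The groups did not overlap in spite of this spread (2.78 ± 0.69, adjusted p = 0.00272). Serpina3n had 52.8, 60.7, 116 and 98.6 CPM in IP, against 9.34, 9.50, 15.02 and 14.4 CPM in input (2.76 ± 0.48, adjusted p = 0.000161), with mouse 3 again highest in both fractions. Gbp10 was at 2.88 ± 0.96 (adjusted p = 0.0152), Ifit3 at 2.72 ± 0.42 (adjusted p = 5.21e-05) and I830012O16Rik at 2.85 ± 0.37 (adjusted p = 1.08e-05), and all 3 were highest in IP replicate 3.

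The inducible proteasome subunits were highest in mouse 3 as well. Of 38 proteasome subunits, 33 were higher and 1 was lower in IP, with a median of 0.38, and the highest were Psmb8, Psmb9 and Psmb10, the catalytic subunits of the immunoproteasome. Psmb8 had 38.8, 34.2, 104 and 58.5 CPM in IP, against 13.8, 7.99, 19.6 and 17.9 CPM in input. The groups did not overlap, mouse 3 was highest in both fractions, and the log2 fold change was 1.98 ± 0.59 (adjusted p = 0.00858). Psmb9 lay at 1.87 ± 0.67 (adjusted p = 0.0225) and Psmb10 at 1.74 ± 0.32 (adjusted p = 0.000265). Psmb9 did not pass without IP replicate 3 or input replicate 1 or 2 (1.39 to 1.76, adjusted p between 0.0559 and 0.0805). The 1 subunit that was lower was Psma3, at -0.25 ± 0.08. Under bARK(D110A) the mice differed too: Gbp2 had 386, 117, 70.5 and 143 CPM in its 4 IP libraries, against 81.9, 22.5, 13.5 and 27.1 CPM in its 4 input libraries. The part of these differences between mice in the fold changes was not tested.

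**Figure D1:**
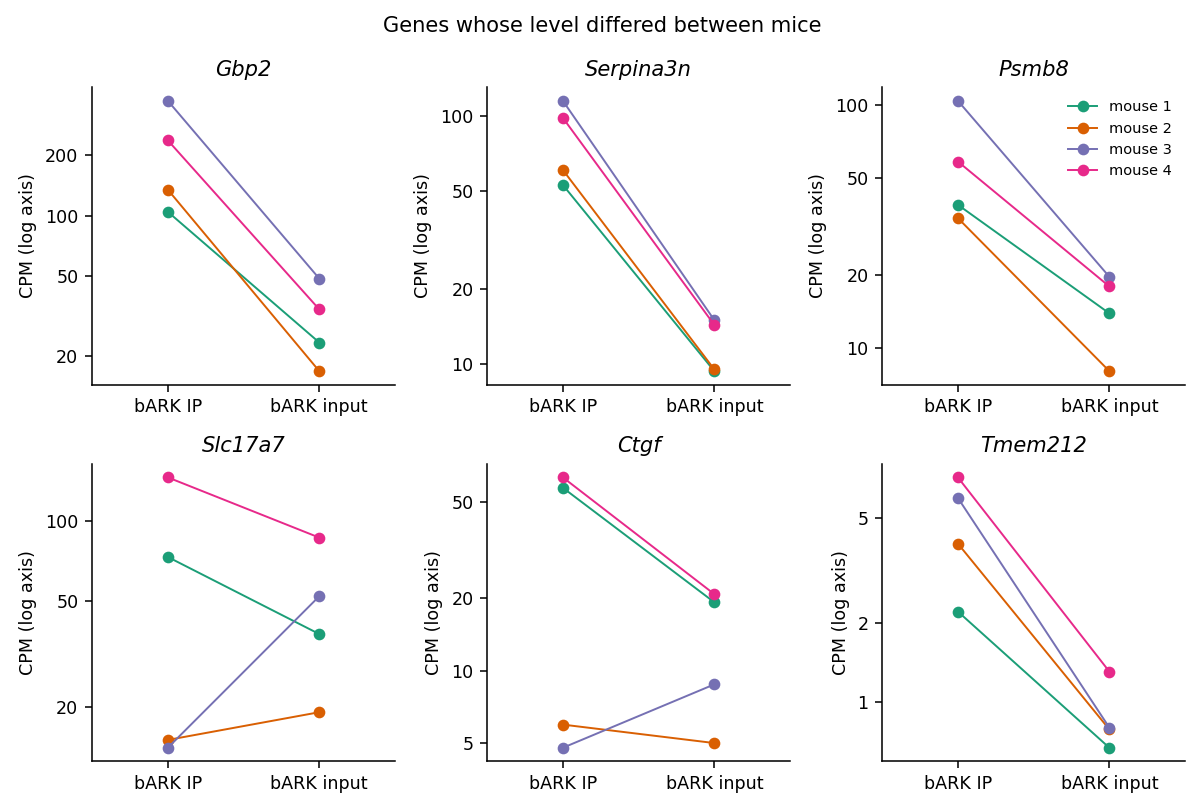
Levels in CPM on log axes of 6 genes in the 4 bARK IP libraries (left of each panel) and the 4 bARK input libraries (right), with a line per mouse. Gbp2, Serpina3n and Psmb8 were highest in mouse 3 in both fractions, whereas Slc17a7 and Ctgf were high in IP in mice 1 and 4 and lower in IP than in input in mouse 3, and Tmem212 was highest in mouse 4.

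Transport genes known from astrocytes were mostly higher in IP. Of the 11 genes of glutamate and GABA uptake and the glutamine cycle, 8 were higher and 2 lower, with a median of 1.42. Glul, glutamine synthetase, had 5691, 6626, 5458 and 5768 CPM in IP, against 1283, 1344, 1317 and 1317 CPM in input (2.16 ± 0.07, adjusted p = 9.46e-14). The glutamine exporter Slc38a3 lay at 2.58 ± 0.08 and the GABA transporter Slc6a11 (GAT-3) at 2.30 ± 0.22. The lowest of this list was Slc38a5, another glutamine transporter, with 0.254, 0.117, 0.204 and 0.243 CPM in IP, against 2.23, 1.95, 2.48 and 2.14 CPM in input (-3.41 ± 0.29, adjusted p = 1.17e-08). Its groups were separate and its level was low in both.

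All 11 genes of potassium, water and chloride handling were higher, with a median of 2.15 and a range of 0.20 to 2.72. Kcnj10, the inward rectifier Kir4.1, had 603, 705, 546 and 572 CPM in IP, against 136, 143, 132 and 136 CPM in input (2.15 ± 0.10, adjusted p = 1.13e-11), and its partner Kcnj16 moved alike at 2.15 ± 0.12. The chloride channel Clcn2 was the lowest at 0.20 ± 0.07, and it did not pass with library size as the only scaling (0.06, adjusted p = 0.447) or at a minimum count of 50 (0.16, adjusted p = 0.0589). Among gap junction genes, the astrocyte connexins Gja1, Gjb6 and Gjb2 were higher by 2.56 ± 0.08, 2.33 ± 0.09 and 1.66 ± 0.13, and Panx2, a pannexin of neurons, was lower, at -0.98 ± 0.09. Gjd2, the connexin of neuronal electrical synapses, was higher, with 12.3, 11.96, 13.7 and 12.7 CPM in IP, against 5.56, 6.03, 6.28 and 5.47 CPM in input (1.11 ± 0.08, adjusted p = 1.72e-09).

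**Figure D2:**
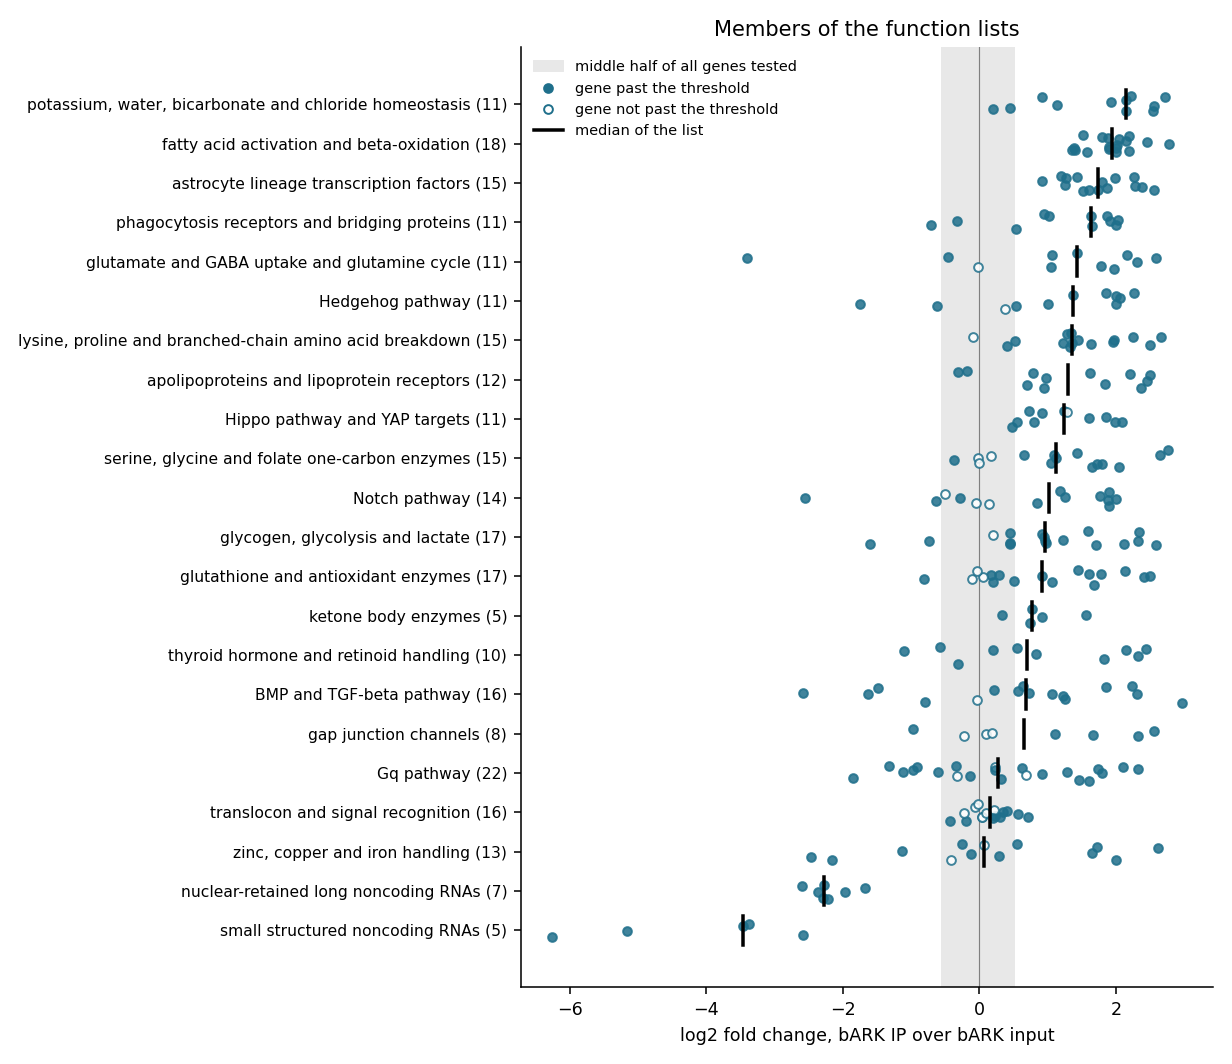
Log2 fold change of bARK IP over bARK input for each tested member of 22 function lists, with filled points for genes past the threshold, black bars for list medians and grey shading for the middle of all genes tested between the quartiles. Medians run from 2.15 for potassium, water and chloride handling to -3.46 for small structured noncoding RNAs.

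Enzymes that break down amino acids were mostly higher in IP, by amounts that differed. Of 15 enzymes of lysine, proline and branched-chain amino acid breakdown, 14 were higher and 1 did not pass, with a median of 1.36. Aass, the first enzyme of lysine breakdown, had 32.99, 37.6, 34.8 and 31.1 CPM in IP, against 5.77, 5.28, 5.61 and 5.02 CPM in input. No IP library came near the input range, and the log2 fold change was 2.65 ± 0.09 (adjusted p = 9.56e-14). Prodh, proline dehydrogenase, lay at 2.49 ± 0.09, Aldh4a1, the next enzyme of the proline route, at 2.25 ± 0.06 and Aldh7a1, which acts after Aass, at 1.96 ± 0.05. Bckdhb, a subunit of the branched-chain ketoacid dehydrogenase, did not pass (-0.09 ± 0.07), while the partner subunit Bckdha was higher by 1.33 ± 0.06 and the core subunit Dbt by 1.63 ± 0.07. The 2 transaminases that begin branched-chain breakdown were higher by less, at 0.52 ± 0.17 for Bcat1 and 0.41 ± 0.09 for Bcat2. With library size as the only scaling, Bcat1 did not pass (0.38, adjusted p = 0.0558) and Bckdhb was called lower (-0.23, adjusted p = 0.00718).

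Serine and glycine enzymes did not all move alike. The 3 enzymes of serine synthesis were higher: Phgdh, the first, had 87.02, 109, 93.3 and 94.6 CPM in IP, against 20.3, 26.1, 23.6 and 22.8 CPM in input (2.05 ± 0.10, adjusted p = 2.52e-11), Psat1 lay at 1.65 ± 0.07 and Psph at 1.79 ± 0.08. Gldc and Amt, parts of the glycine cleavage system, were higher by 2.65 ± 0.08 and 1.72 ± 0.07. Srr, the racemase that makes D-serine, was instead lower, with 76.6, 77.5, 74.02 and 77.1 CPM in IP, against 101, 99.1, 96.1 and 101 CPM in input (-0.38 ± 0.05, adjusted p = 1.25e-06). The groups of Srr did not overlap. Shmt1 at -0.02 ± 0.16, Mthfd1l at -0.01 ± 0.09 and Mthfd2 at 0.17 ± 0.09, all of the folate cycle, did not pass. Mthfd2 passed without input replicate 4 or IP replicate 3 (0.24 and 0.22, adjusted p of 0.0239 and 0.0399). Over the list 11 of 15 were higher and 1 lower (median 1.12).

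Each of the 18 genes of fatty acid activation and β-oxidation was higher in IP, with a median of 1.95 and a range of 1.35 to 2.77. Cpt1a, the gate of fatty acid entry into mitochondria, had 174, 212, 186 and 177 CPM in IP, against 34.996, 36.1, 32.9 and 33.4 CPM in input (2.45 ± 0.07, adjusted p = 2.34e-14). Cpt2, its partner on the inner membrane, lay at 2.18 ± 0.09, Acsl3, an acyl-CoA synthetase, at 1.90 ± 0.07, and the dehydrogenases Acadl, Acads, Acadvl and Acadm at 2.19 ± 0.08, 2.15 ± 0.08, 1.89 ± 0.05 and 1.58 ± 0.06. Hadha, a subunit of the mitochondrial trifunctional protein, was the lowest at 1.35 ± 0.05, and the other subunit, Hadhb, lay at 1.79 ± 0.08. The 5 ketone body enzymes were all higher with a median of 0.77, with Bdh1, which makes hydroxybutyrate, and Oxct1, which begins the use of ketone bodies, at 0.91 ± 0.05 and 0.74 ± 0.04.

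Glycogen enzymes and most glycolytic enzymes were higher in IP. Pygm, the muscle-type glycogen phosphorylase, had 97.5, 95.3, 83.1 and 95.9 CPM in IP, against 21.3, 17.4, 16.8 and 18.9 CPM in input (2.32 ± 0.13, adjusted p = 1.21e-10), Pygb, the brain type, lay at 2.34 ± 0.07, the synthase Gys1 at 1.60 ± 0.08 and the branching enzyme Gbe1 at 0.91 ± 0.07. Among the glycolytic enzymes, Aldoc was higher by 2.59 ± 0.09 and its isoform Aldoa by 0.45 ± 0.05, and Pkm lay at 0.44 ± 0.05. Hk2, an inducible hexokinase, was lower, with 2.72, 3.75, 2.70 and 3.49 CPM in IP, against 10.4, 8.98, 9.92 and 9.03 CPM in input (-1.60 ± 0.17, adjusted p = 2.49e-07), whereas Hk1 was higher by 0.96 ± 0.06. The lactate transporters diverged too: Slc16a1 was higher by 0.97 ± 0.14 and Slc16a7, the form of neurons, lower, at -0.74 ± 0.08. Over the list, 14 of 17 were higher and 2 lower (median 0.96).

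Of 12 apolipoproteins and lipoprotein receptors, 10 were higher and 2 lower, with a median of 1.30. Apoe, the main lipoprotein component made by astrocytes and the second most read gene in IP, had 5948, 7087, 6294 and 5992 CPM in IP, against 1142, 1120.3, 1156 and 1051 CPM in input (2.50 ± 0.08, adjusted p = 5.12e-14). Clu, also called apolipoprotein J, lay at 2.46 ± 0.08, the cholesterol exporter Abca1 at 1.84 ± 0.06 and Lcat, which esterifies cholesterol on lipoproteins, at 2.37 ± 0.12. Vldlr and the exporter Abcg1 were the 2 that were lower, at -0.31 ± 0.05 and -0.19 ± 0.06, and Abcg1 did not pass without IP replicate 2 (-0.14, adjusted p = 0.057). Other genes with many reads in IP were Scd2, a fatty acid desaturase, at 1.78 ± 0.07, and Sparcl1, a secreted matrix protein, at 2.35 ± 0.11.

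Antioxidant genes were higher in 13 of 17 cases and lower in 1, with a median of 0.91. Gstm1, a glutathione transferase, had 315, 398, 315 and 366 CPM in IP, against 58.1, 63.6, 62.6 and 62.3 CPM in input (2.50 ± 0.08, adjusted p = 4.26e-14), and Nfe2l2, the factor that drives many of these genes, lay at 2.13 ± 0.10. The synthesis enzymes were enriched less: Gclc lay at 0.16 ± 0.05, Gclm at 1.06 ± 0.06 and Gss at 0.91 ± 0.08, and the reductase Gsr did not pass (0.05 ± 0.05). Gclc did not pass with library size as the only scaling (0.02, adjusted p = 0.700). Gpx1, a glutathione peroxidase, was the 1 that was lower, at -0.81 ± 0.07. Of 13 genes of zinc, copper and iron handling, 6 were higher and 5 lower (median 0.07). The zinc-binding metallothioneins Mt1, Mt2 and Mt3 and the zinc importer Slc39a12 were higher by 1.72 ± 0.07, 1.99 ± 0.08, 1.65 ± 0.07 and 2.62 ± 0.08. The iron storage subunits were lower: Fth1 had 206, 169.7, 180.5 and 187 CPM in IP, against 860.0, 832, 802 and 839 CPM in input (-2.16 ± 0.11, adjusted p = 2.25e-11), Ftl1 lay at -1.13 ± 0.07, and the iron exporter Slc40a1 at -2.46 ± 0.15. Ferritin genes have near-identical pseudogene copies, so their counts are uncertain. Slc30a10 and Slc11a2, which export and import divalent metals, were slightly lower, at -0.26 ± 0.07 and -0.12 ± 0.04, while Tfrc, the transferrin receptor, was higher by 0.55 ± 0.07.

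Thyroid hormone and retinoid genes were higher in 7 of 10 cases and lower in 3 (median 0.69). Dio2, which converts thyroxine to its active form, had 631, 717, 557 and 576 CPM in IP, against 136, 118, 120.1 and 122 CPM in input (2.32 ± 0.11, adjusted p = 1.23e-11). The transporter Slco1c1 lay at 1.82 ± 0.12, and Aldh1a1, which makes retinoic acid, at 2.44 ± 0.12. The 3 that were lower were the thyroid hormone receptors Thra and Thrb, at -0.57 ± 0.05 and -0.31 ± 0.07, and Rarb, a retinoic acid receptor abundant in spiny neurons, at -1.11 ± 0.10. Their partner receptor Rxra was higher by 0.20 ± 0.06, a call lost when scaled by library size alone (0.06, adjusted p = 0.323).

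In the Notch and Hedgehog pathways, receptors and target genes were mostly higher, and no ligand passed as higher in the fit of all 16 libraries. Of 14 Notch pathway genes, 8 were higher and 3 lower (median 1.01). The receptor genes Notch1, Notch2 and Notch3 were higher by 1.90 ± 0.07, 1.89 ± 0.08 and 2.002 ± 0.07, and the targets Hes5, Hey2 and Nrarp by 1.26 ± 0.41, 1.77 ± 0.13 and 1.90 ± 0.18. Of the ligands, Jag1 lay at -0.50 ± 0.24 (adjusted p = 0.0757, and 9.21e-05 with the mouse as a block; -0.63 without input replicate 3 or IP replicate 2, with adjusted p of 0.0332 and 0.0397) and Jag2, Dll1 and Dll4 were lower, at -0.28 ± 0.07, -0.64 ± 0.09 and -2.55 ± 0.26. Dll4 is an endothelial ligand, and its level was 0.184, 0.326, 0.178 and 0.243 CPM in IP, against 1.37, 1.75, 1.13 and 1.31 CPM in input. In the Hedgehog pathway 8 of 11 were higher and 2 lower (median 1.38). The signal transducer Smo had 48.3, 58.6, 52.8 and 53.4 CPM in IP, against 14.5, 15.98, 16.2 and 12.4 CPM in input (1.85 ± 0.09, adjusted p = 6.14e-12), Gli2, a transcription factor of the pathway, was highest at 2.27 ± 0.12, and the receptor Ptch1 lay at 0.54 ± 0.05. The ligand Shh did not pass (0.38 ± 0.22), but did without IP replicate 4 (0.56, adjusted p = 0.0153) and in the 8 bARK libraries with the mouse as a block (0.33, adjusted p = 0.0404), and the co-receptor Cdon was lower, at -0.63 ± 0.08.

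In the BMP and TGF-β pathway, receptors went both ways. Bmpr1b, a type I receptor for bone morphogenetic proteins, had 181, 211, 202 and 176 CPM in IP, against 38.4, 42.2, 44.1 and 39.4 CPM in input (2.23 ± 0.07, adjusted p = 2.35e-14), and Bmpr1a lay at 1.07 ± 0.05. The TGF-β receptors were the reverse: Tgfbr1 had 19.6, 19.98, 17.8 and 19.1 CPM in IP, against 60.2, 54.6, 61.1 and 60.02 CPM in input (-1.63 ± 0.07, adjusted p = 1.15e-12), and Tgfbr2 lay at -1.48 ± 0.19. Tgfb1, a ligand made by microglia, was the lowest of the list at -2.59 ± 0.24, and Tgfb2 was higher by 1.22 ± 0.08. Bmp4 was lower at -0.80 ± 0.20, while Bmp6 and Bmp7 were higher by 0.57 ± 0.15 and 0.64 ± 0.10. The target genes Id1, Id2, Id3 and Id4 were all higher, by 1.26 ± 0.08, 2.30 ± 0.11, 1.85 ± 0.09 and 0.72 ± 0.07, and over the list 11 of 16 were higher and 4 lower (median 0.68).

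Among 11 Hippo pathway genes, 10 were higher and 1 did not pass (median 1.24), with the coactivators Yap1 and Wwtr1 (TAZ) at 1.61 ± 0.08 and 2.09 ± 0.09, Tead1 at 1.85 ± 0.09 and Tead2 at 0.48 ± 0.21 (adjusted p = 0.04998). Tead2 did not pass in most alternatives, among them each single bARK library left out other than IP replicate 1 and input replicate 3 (0.37 to 0.52, adjusted p between 0.0569 and 0.142). The 1 member that did not pass was Ctgf, a secreted YAP target that also marks deep cortical neurons, at 1.29 ± 0.89 (adjusted p = 0.203). It had 57.2, 5.97, 4.79 and 63.1 CPM in IP, against 19.2, 5.01, 8.76 and 20.7 CPM in input. Mice 1 and 4 were high and mice 2 and 3 low in both fractions. All 15 transcription factors of the astrocyte lineage were higher, with a median of 1.74. Sox9 was highest, with 111, 132, 108 and 109 CPM in IP, against 18.96, 19.4, 20.2 and 19.5 CPM in input (2.56 ± 0.09, adjusted p = 1.07e-13), the nuclear factors Nfia, Nfib and Nfix lay at 1.52 ± 0.08, 1.60 ± 0.08 and 1.43 ± 0.15, and Zbtb20, which neurons express too, was lowest at 0.92 ± 0.07. Of 11 phagocytosis genes, 9 were higher and 2 lower (median 1.63). The engulfment receptors Mertk, Megf10 and Axl lay at 1.91 ± 0.12, 1.87 ± 0.10 and 1.99 ± 0.08, the bridging protein Mfge8 was highest at 2.03 ± 0.11, and Tyro3, the family member of neurons, and the hydroxylase Jmjd6 were lower at -0.71 ± 0.08 and -0.33 ± 0.13. Jmjd6 did not pass without input replicate 3 or IP replicate 1, 2 or 4 (-0.25 to -0.32, adjusted p between 0.0658 and 0.102).

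The Gq pathway, which bARK attenuates, had members on both sides. Of 22 members, 11 were higher and 8 lower, with a median of 0.28, against 37.6% higher and 38.1% lower of all genes tested. Ednrb, the endothelin B receptor, had 448, 539.6, 432 and 381 CPM in IP, against 92.8, 105, 86.96 and 75.9 CPM in input (2.32 ± 0.11, adjusted p = 1.55e-11), and the α1A-adrenergic receptor Adra1a and the histamine receptor Hrh1 were higher by 1.46 ± 0.12 and 1.74 ± 0.12. The purinergic receptor P2ry1 lay at -0.33 ± 0.22 (adjusted p = 0.188, and 0.0205 with the mouse as a block), and the glutamate receptor Grm5 and the serotonin receptor Htr2a were lower, at -0.91 ± 0.08 and -1.33 ± 0.18. The G protein subunits Gnaq and Gna11 were close to the input level, at 0.22 ± 0.04 and -0.13 ± 0.04. Phospholipase Plcb3 had 66.5, 85.8, 76.5 and 72.96 CPM in IP, against 17.6, 17.6, 19.005 and 15.8 CPM in input (2.11 ± 0.08, adjusted p = 4.85e-13) and Plcb4 lay at 1.79 ± 0.18, whereas Plcb1 was lower at -0.34 ± 0.07. Of the inositol trisphosphate receptors, Itpr2 was higher by 1.61 ± 0.07, and Itpr1, one of the genes with most reads among those lower in IP, and Itpr3 were lower, at -0.60 ± 0.08 and -1.85 ± 0.25. The regulators of G protein signalling Rgs2 and Rgs4 were lower too, at -1.13 ± 0.20 and -0.97 ± 0.10.

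Messenger RNAs of spiny projection neurons were lower in IP but far from absent. All 12 general spiny neuron markers were lower, with a median of -1.18. Ppp1r1b, the phosphoprotein DARPP-32, had 555, 590.0, 612 and 576 CPM in IP, against 1357, 1195, 1242 and 1302 CPM in input (-1.13 ± 0.08, adjusted p = 6.65e-10). Every IP library lay below every input library. Pde10a, a phosphodiesterase and one of the most read genes of the input, lay at -0.93 ± 0.11, Rgs9 at -1.13 ± 0.10 and Arpp21, a regulator of calmodulin signalling, lowest at -1.99 ± 0.10. Another of the most read genes in input was Ppp3ca, calcineurin, at -0.92 ± 0.08. Of 8 markers of direct-pathway neurons 5 were lower and 3 did not pass (median -0.72), with the dopamine receptor Drd1a at -1.06 ± 0.11 and Tac1, the substance P precursor, lowest at -1.42 ± 0.10. Isl1, a transcription factor of these cells, did not pass (-0.19 ± 0.09, adjusted p = 0.0583), but did with the mouse as a block (adjusted p = 0.0267) and without input replicate 3 or 4 or IP replicate 3 (-0.21 to -0.25, adjusted p between 0.0169 and 0.0398). All 8 markers of indirect-pathway neurons were lower (median -1.04), with Drd2 at -1.16 ± 0.09, Adora2a at -1.59 ± 0.11 and Penk, the enkephalin precursor, at -1.03 ± 0.09.

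Most markers of cholinergic interneurons and of somatostatin, NPY and NOS1 interneurons were higher in IP. Of 8 cholinergic interneuron markers 7 were higher, with a median of 2.17, and of 6 markers of somatostatin, NPY and NOS1 interneurons 6 were higher, with a median of 2.17. Chat, the acetylcholine-synthesising enzyme, had 109, 138, 115 and 120.5 CPM in IP, against 23.5, 27.4, 28.3 and 23.8 CPM in input. No library of IP came near the input range, and the log2 fold change was 2.23 ± 0.10 (adjusted p = 1.01e-11). The vesicular acetylcholine transporter Slc18a3 lay at 2.19 ± 0.14 and the choline transporter Slc5a7 at 2.10 ± 0.11. Nos1, neuronal nitric oxide synthase, had 331, 428, 346 and 358 CPM in IP, against 63.8, 53.6, 62.9 and 64.1 CPM in input (2.58 ± 0.10, adjusted p = 1.28e-12). The neuropeptides Sst and Npy were higher by 2.30 ± 0.11 and 2.18 ± 0.09. Both list medians were close to the median of the astrocyte markers, 2.56, and under bARK(D110A) Chat lay at 2.07 ± 0.10 and Nos1 at 2.39 ± 0.10.

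Among 10 markers of the remaining interneurons 6 were higher. Th, tyrosine hydroxylase, lay at 1.83 ± 0.16 and Vip, a neuropeptide, was highest at 1.86 ± 0.54, while Pvalb, parvalbumin, and Calb2, calretinin, did not pass (-0.27 ± 0.39 and 0.13 ± 0.41). Lhx6, a transcription factor of interneurons born in the ganglionic eminence, had 72.7, 76.6, 72.6 and 62.4 CPM in IP, against 19.02, 22.04, 23.3 and 20.7 CPM in input (1.74 ± 0.10, adjusted p = 2.10e-10). Pan-neuronal markers were divided, with 3 higher, 6 lower and 3 not past the threshold. Rbfox3, the nuclear antigen NeuN, was lowest at -1.11 ± 0.06, and Elavl4, Stmn2 and Tubb3 were higher by 0.95 ± 0.20, 0.58 ± 0.15 and 0.39 ± 0.06. The part of neuronal RNA in any enrichment above was not tested.

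Markers of cortical excitatory neurons depended on the mouse. Of 10 tested markers, Fezf2 was the only one past the threshold (1.69 ± 0.24, adjusted p = 6.37e-06). Slc17a7, the vesicular glutamate transporter of cortical neurons, had 73.1, 15.1, 14.1 and 145 CPM in IP, against 37.6, 19.2, 52.1 and 86.4 CPM in input. IP replicates 1 and 4 were high and replicates 2 and 3 low, the groups overlapped, and the within-mouse log2 ratios were 0.96, -0.35, -1.89 and 0.75. The list as a whole followed this order, with mean log2(CPM + 0.1) of 2.71, 1.35, 1.43 and 3.47 in the 4 IP libraries, against 1.81, 1.39, 2.41 and 2.87 in the 4 input libraries. All 10 markers were above their input in mouse 1, 8 in mouse 4, 3 in mouse 2 and 1 in mouse 3. Tbr1, a transcription factor of cortical neurons, lay at 0.51 ± 1.09. Without IP replicate 4, the values of Slc17a7 and Tbr1 were -0.52 and -0.44, and these genes did not pass with or without it.

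Most oligodendrocyte markers did not pass. Of 12 tested, Cnp, a myelin phosphodiesterase, was higher (0.61 ± 0.21, adjusted p = 0.017), Mobp, a myelin-associated basic protein, was lower (-0.82 ± 0.29, adjusted p = 0.019), and 10 did not pass. Neither call held without 1 library: Cnp lay at 0.51 (adjusted p = 0.0585) without IP replicate 1 and Mobp at -0.72 (adjusted p = 0.0562) without IP replicate 2. Cnp had 739.6, 524, 609 and 665 CPM in IP, against 409, 443, 414 and 403 CPM in input. Its groups did not overlap, and IP replicate 1 was highest in all 12 markers. Of the 8 precursor markers, 3 were lower and 1 was higher, with Lhfpl3 lowest at -0.80 ± 0.19. Pdgfra did not pass at -0.23 ± 0.14, but did without IP replicate 2 (-0.33, adjusted p = 0.0374), when scaled by library size alone (-0.38, adjusted p = 0.0141) and in the 8 bARK libraries alone (-0.26, adjusted p = 0.0337, and 0.000396 with the mouse as a block). Cspg4 (NG2) was higher by 0.20 ± 0.08, a call that was lost without IP replicate 1 or 2 or input replicate 2, 3 or 4 (adjusted p between 0.0524 and 0.14, log2 fold change between 0.14 and 0.21). It was lost too at a minimum count of 50 (0.15, adjusted p = 0.0967) and with library size as the only scaling (0.06, adjusted p = 0.505).

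Ependymal markers were higher throughout, 7 of 7 with a median of 2.15. Foxj1, the master regulator of motile cilia, had 56.3, 52.3, 68.6 and 72.3 CPM in IP, against 14.3, 13.3, 13.8 and 14.9 CPM in input (2.15 ± 0.26, adjusted p = 4.94e-06). Tmem212 had 2.21, 4.01, 5.98 and 7.16 CPM in IP, against 0.672, 0.788, 0.801 and 1.31 CPM in input (2.43 ± 0.60, adjusted p = 0.00218). Mouse 4 was highest in both fractions in all 7 markers, and no groups overlapped. Choroid plexus markers had no common direction, with 3 higher and 3 lower of 6: Ttr, transthyretin, was lowest at -2.50 ± 0.75 and Folr1, a folate receptor, highest at 2.58 ± 0.64. Ttr did not pass without input replicate 1 (-1.52, adjusted p = 0.0538). Neuroblast and neural stem cell markers were divided as well. Egfr, the epidermal growth factor receptor, had 137, 167, 157 and 148 CPM in IP, against 27.6, 30.9, 32.9 and 30.7 CPM in input (2.32 ± 0.07, adjusted p = 2.28e-14), while Dcx, doublecortin of migrating neuroblasts, was lower at -1.21 ± 0.10 and Top2a, a topoisomerase of dividing cells, at -1.80 ± 0.35.

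**Figure D3:**
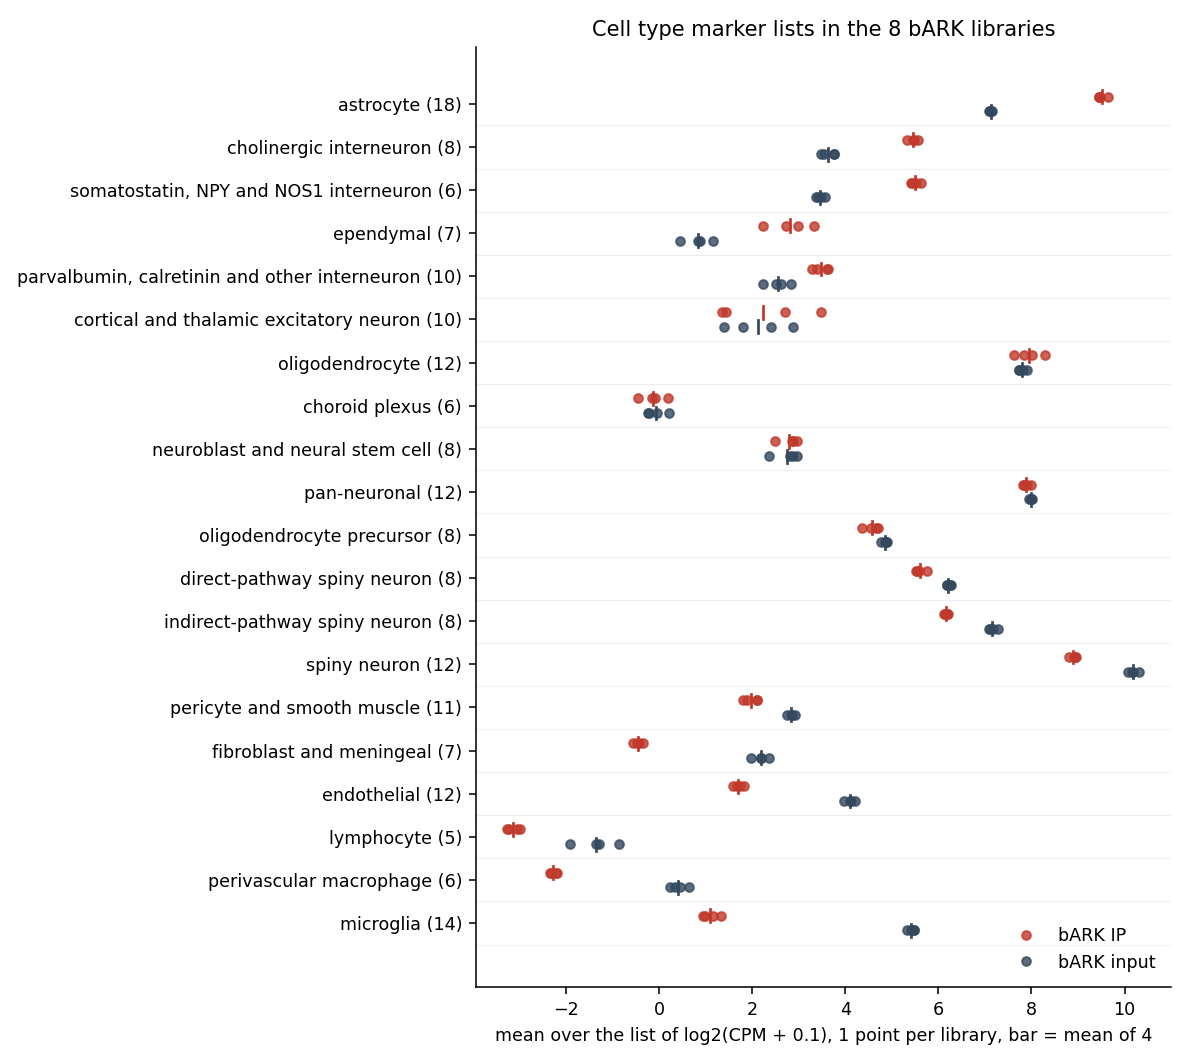
Mean over each cell type marker list of log2(CPM + 0.1) in the 4 bARK IP libraries (upper points) and the 4 bARK input libraries (lower points), with a bar at the mean of 4 and the number of genes tested in brackets. Astrocyte, cholinergic, somatostatin and ependymal lists lie to the right in IP, microglia, macrophage, lymphocyte, endothelial and fibroblast lists to the left, and the cortical list spreads widest among the IP libraries.

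Of the 20 marker lists, that of microglia had the lowest median. All 14 markers were lower, with a median of -4.81, and 8 of the 15 largest falls were of this list. Ctss, a lysosomal protease, had 2.01, 2.52, 4.99 and 2.19 CPM in IP, against 181, 139, 194 and 178 CPM in input (-5.90 ± 0.35, adjusted p = 3.13e-09). The complement subunits C1qa, C1qb and C1qc lay at -5.66 ± 0.24, -5.53 ± 0.29 and -5.62 ± 0.27, and the receptors Csf1r and Cx3cr1 at -5.17 ± 0.16 and -4.91 ± 0.11. Others of the largest falls were Tmem119 at -5.10 ± 0.18, Itgam (CD11b) at -5.15 ± 0.18, Fcrls at -5.02 ± 0.25, Laptm5 at -4.59 ± 0.23, Selplg, a ligand of selectins, at -5.27 ± 0.15, Ly86 at -4.996 ± 0.27 and the Fc receptor Fcgr3 at -4.69 ± 0.18. The purinergic receptor P2ry12 was depleted less, with 5.62, 6.86, 7.03 and 7.56 CPM in IP, against 50.7, 48.4, 40.9 and 41.1 CPM in input (-2.74 ± 0.11, adjusted p = 1.26e-12). The groups did not overlap in P2ry12.

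Of 6 perivascular macrophage and 5 lymphocyte markers that passed the filter for low counts, all were lower. Lyve1 and Cd3d did not pass it, with at most 17 and 21 reads in a bARK library. Mean log2 CPM in bARK IP was -2.94 to -2.63 for the macrophage list and -4.19 to -3.71 for the lymphocyte list. Markers at such levels could pass through the input libraries alone, so the common direction was partly set by the filter. Mrc1, a mannose receptor of macrophages, had 0.415, 0.373, 0.229 and 0.332 CPM in IP, against 9.53, 7.03, 6.91 and 7.02 CPM in input (-4.48 ± 0.24, adjusted p = 2.62e-11). Cd163, a scavenger receptor, was depleted least of these, at -1.77 ± 0.24. The lymphocyte genes rest on few reads: Cd79b, of the B cell receptor, had 2, 0, 1 and 0 reads in the IP libraries, against 24, 21, 35 and 39 reads in the input libraries, and Cd3e, of the T cell receptor, had 0, 0, 1 and 0 reads, against 4, 2, 13 and 10 reads. Igj, the joining chain of antibodies, was among the largest falls, with 0.599, 0.583, 0.713 and 0.906 CPM in IP, against 52.2, 18.5, 24.4 and 33.7 CPM in input (-5.51 ± 0.75, adjusted p = 1.91e-05).

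Endothelial markers were lower in 10 of 12 cases, and 2 were higher (median -3.32). Cldn5, a tight junction protein, had 1.48, 1.05, 0.993 and 1.19 CPM in IP, against 19.1, 19.3, 16.0001 and 16.1 CPM in input (-3.90 ± 0.12, adjusted p = 5.56e-14), and Pecam1, Flt1 and Slco1a4 lay at -3.83 ± 0.15, -3.03 ± 0.11 and -3.37 ± 0.09. Ly6c1 was lowest at -4.21 ± 0.14. The 2 exceptions were both transporters, as is Slco1a4, which was lower. Mfsd2a, which carries docosahexaenoic acid, had 40.3, 58.7, 48.7 and 50.8 CPM in IP, against 12.5, 16.01, 15.4 and 14.3 CPM in input (1.77 ± 0.14, adjusted p = 1.35e-08). Slc2a1, the glucose transporter GLUT1, had 64.8, 74.6, 63.1 and 74.8 CPM in IP, against 41.7, 40.5, 48.6 and 47.5 CPM in input (0.64 ± 0.08, adjusted p = 1.72e-06). Neither gene's groups overlapped.

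Mural cell markers also had exceptions. Of 11 pericyte and smooth muscle markers 8 were lower and 2 higher (median -1.20). Rgs5 lay at -1.35 ± 0.08, the potassium channel subunit Kcnj8 at -1.99 ± 0.20 and Abcc9 at -1.17 ± 0.09, with Ndufa4l2 lowest at -2.50 ± 0.25. Pdgfrb, the platelet-derived growth factor receptor of pericytes, was higher instead, with 55.3, 74.6, 55.5 and 50.9 CPM in IP, against 27.5, 29.4, 25.3 and 24.8 CPM in input (1.15 ± 0.10, adjusted p = 3.77e-08), as was Notch3. All 7 fibroblast markers were lower (median -2.11). Dcn, decorin, had 0.115, 0.117, 0.356 and 0.155 CPM in IP, against 7.63, 8.30, 7.74 and 6.54 CPM in input (-5.35 ± 0.24, adjusted p = 2.59e-12), whereas Col1a2, a collagen chain, was depleted least, with 4.98, 7.81, 6.90 and 7.21 CPM in IP, against 9.77, 9.36, 9.77 and 9.03 CPM in input (-0.50 ± 0.12, adjusted p = 0.00132). Its partner chain Col1a1 lay at -1.91 ± 0.20.

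RNAs that are not translated formed the other depleted end. Of 685 long noncoding RNAs tested, 91 were higher and 396 lower (median -0.78), against 39.3% higher and 36.6% lower of 14816 protein-coding genes (median 0.02). All 7 nuclear-retained long noncoding RNAs were lower, with a median of -2.27. Malat1, the most read gene of the input, had 2443, 2426, 1974 and 1687 CPM in IP, against 9429, 8123, 8023 and 7635 CPM in input (-1.96 ± 0.12, adjusted p = 1.70e-10). Neat1, the scaffold of paraspeckles, was lower, at -1.68 ± 0.24, and Meg3, Rian and Mirg, transcribed from the imprinted Dlk1-Dio3 region, were at -2.60 ± 0.13, -2.28 ± 0.10 and -2.22 ± 0.19.

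The single largest fall was that of Rmrp, the RNA component of the endoribonuclease MRP, which processes ribosomal RNA in the nucleolus. Its sequence is shown because no other gene with a mean of at least 10 CPM fell as far. It is 271 bases long and lies on chromosome 4 (chr4:43492788-43493058, minus strand, GRCm38, GENCODE M21).
Rmrp: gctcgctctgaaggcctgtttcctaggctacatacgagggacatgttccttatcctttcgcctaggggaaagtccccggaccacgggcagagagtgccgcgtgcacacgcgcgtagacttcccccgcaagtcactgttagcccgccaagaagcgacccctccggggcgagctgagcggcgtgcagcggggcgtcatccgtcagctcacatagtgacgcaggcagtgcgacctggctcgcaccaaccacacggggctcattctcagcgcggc

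Rmrp had 7.10, 10.96, 17.9 and 11.9 CPM in IP, against 914, 833, 918 and 978 CPM in input. All 4 IP libraries were far below all 4 input libraries, and the log2 fold change was -6.25 ± 0.38 (adjusted p = 4.18e-09). Rpph1, the RNA of the related ribonuclease P, which matures transfer RNA, had 127, 214, 178 and 154 CPM in IP, against 1879, 1604, 1826 and 1663 CPM in input (-3.37 ± 0.16, adjusted p = 2.97e-11). It was thus depleted less than Rmrp in each mouse. Rnu12 and Rnu11, small nuclear RNAs of the minor spliceosome, lay at -5.16 ± 0.43 and -2.59 ± 0.32, and Terc, the telomerase RNA, at -3.46 ± 0.46. Of 119 small nucleolar and Cajal body RNAs, 41 passed the filter for low counts. Their mean log2 CPM was -2.48 to -2.19 in the bARK IP libraries, against -0.24 to -0.15 in the bARK input libraries. RNAs at such levels could pass through the input libraries alone, so their common direction was partly set by the filter. Of the 41, 40 were lower (median -2.41). The exception was Scarna13, with 70.1, 75.7, 67.6 and 72.6 CPM in IP, against 58.6, 62.1, 61.1 and 59.2 CPM in input (0.25 ± 0.07, adjusted p = 0.00391), and it did not pass with library size as the only scaling (0.10, adjusted p = 0.189). It lies within Snhg10, one of the host genes, and reads of overlapping genes cannot be told apart without the strand setting of the counting, which the sources used do not give. The spliced host genes of small nucleolar RNAs were lower in 9 of 11 cases (median -0.83), with Gas5 at -1.32 ± 0.07, Snhg8 lowest at -2.10 ± 0.11 and Snhg18 higher by 0.78 ± 0.27, a call lost without input replicate 1 (0.58, adjusted p = 0.0558).

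Genes annotated as microRNAs that passed the filter for low counts were lower nearly throughout. Of 103 tested, 92 were lower and 3 higher, with a median of -2.24, and 95 of the 103 matched a mature sequence in the RefSeq microRNA table by symbol. In libraries enriched for messenger RNA, such reads are taken to come from longer transcripts around the hairpin and not from the mature microRNA of 20 to 23 bases. Of 1106 genes found by a microRNA symbol pattern, only 102 passed the filter. Their mean log2 CPM was -2.42 to -2.33 in the bARK IP libraries, against -0.82 to -0.57 in the bARK input libraries. Genes at such levels could pass through the input libraries alone, so the common direction was partly set by the filter. The following mature microRNAs are shown because their genes stood out, and they were chosen after their values were seen: mmu-miR-7a-5p and mmu-miR-425-5p come from genes lower in IP inside genes that were higher, and mmu-miR-568 and mmu-miR-6390 come from 2 of the 3 genes that were higher. Capitals mark the seed, bases 2 to 8, in which all 4 differ (RefSeq, GRCm38.p6). They lie at chr13:58392841-58392863 (minus strand), chr9:108568789-108568811 (plus strand), chr16:43640665-43640684 (plus strand) and chr14:105623710-105623730 (minus strand), within the hairpin genes described after them.
mmu-miR-7a-5p: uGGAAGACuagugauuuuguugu
mmu-miR-425-5p: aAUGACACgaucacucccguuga
mmu-miR-568: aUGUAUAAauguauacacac
mmu-miR-6390: gAAUUGAUcaggauguaacca

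Of the 103 microRNA genes, 72 lie inside another tested gene, and 67 of these were lower, with a median of -2.38. The containing gene was found by position without regard to strand, so it need not be the gene with which the microRNA is transcribed. The genes that contain them had a median of -0.38, with a gene counted again for each microRNA gene inside it. Of the 72 microRNA genes, 65 had a lower log2 fold change than the gene around them. MicroRNA genes with few reads could pass the filter through the input libraries alone, which favours this outcome, so the count is only a description. In 5 cases the microRNA gene was lower inside a gene that was higher. The gene Mir7-1 (chromosome 13, 58392779 to 58392886, minus strand) had 0.0922, 0.117, 0.0509 and 0.199 CPM in IP, against 0.397, 0.514, 0.701 and 0.534 CPM in input (-2.18 ± 0.44, adjusted p = 0.000263). Hnrnpk, a splicing factor whose gene contains it by position, had 163, 167, 172 and 168 CPM in IP, against 112, 114, 116 and 114 CPM in input (0.56 ± 0.03, adjusted p = 1.03e-10). The groups of both genes did not overlap and went opposite ways, but Mir7-1 rests on few reads, above all in IP. The gene Mir425 (chromosome 9, 108568777 to 108568861, plus strand) lay at -1.31 ± 0.30 inside Dalrd3, which was higher by 0.16 ± 0.05 with overlapping groups and did not pass without input replicate 2 (0.13, adjusted p = 0.0553), at a minimum count of 50 (0.11, adjusted p = 0.059) or with library size as the only scaling (0.02, adjusted p = 0.725). Rtl1, a retrotransposon-like gene of the Dlk1-Dio3 region that did not pass (0.33 ± 0.28), contains 10 of the 72 microRNA genes by position, all of them lower.

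The gene Mir6390 (chromosome 14, 105623642 to 105623770, minus strand) had 4.86, 5.08, 3.77 and 3.54 CPM in IP, against 1.68, 1.41, 1.63 and 1.90 CPM in input (1.38 ± 0.16, adjusted p = 6.21e-07). The gene Mir568 (chromosome 16, 43640655 to 43640737, plus strand) had 3.07, 3.45, 3.72 and 3.20 CPM in IP, against 1.47, 1.44, 1.53 and 2.32 CPM in input (0.99 ± 0.17, adjusted p = 5.37e-05). Neither gene's groups overlapped, and neither lies inside another tested gene, although Mir568 follows the annotated end of Zbtb20, which had a like fold change of 0.92. The third gene that was higher, Mir1901, lay at 1.66 ± 0.42.

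**Figure D4:**
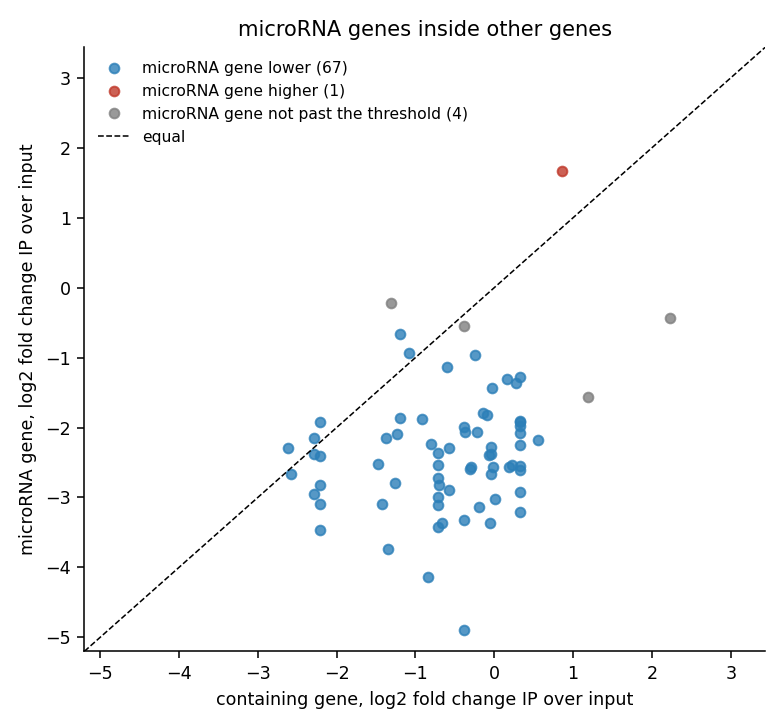
Log2 fold change of bARK IP over bARK input for 72 microRNA genes (vertical axis) and the tested gene that contains each by position (horizontal axis), coloured by the call of the microRNA gene, with a dashed line where both are equal. Below the line lie 65 of the 72, and points that share a horizontal position share a containing gene, such as the 10 inside Rtl1.

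Messenger RNAs of the translation machinery went different ways by gene family. Of 81 cytosolic ribosomal protein genes without Rpl22, 72 were lower and 4 higher, with a median of -0.85. Rplp1, a stalk protein, was lowest, with 60.3, 66.4, 72.1 and 65.6 CPM in IP, against 242, 252, 254 and 235 CPM in input (-1.90 ± 0.06, adjusted p = 5.78e-14). Rps27l, a ribosomal protein paralog induced by p53, was highest, with 26.1, 28.6, 26.8 and 25.3 CPM in IP, against 8.40, 8.47, 7.31 and 8.92 CPM in input (1.69 ± 0.08, adjusted p = 5.35e-12). Its groups did not overlap and lay in the opposite order to those of Rplp1. These genes have many processed pseudogenes, so their counts are uncertain. Of 77 mitochondrial ribosomal protein genes 42 were higher and 12 lower (median 0.17). Cytosolic aminoacyl-tRNA synthetases were higher in 18 of 20 cases (median 0.52), with Dars highest at 0.93 ± 0.05 and Kars, which was lower, at -0.10 ± 0.04 (-0.09 and adjusted p between 0.0635 and 0.0938 without input replicate 3 or IP replicate 1, 2 or 4), and mitochondrial ones in 8 of 17 (median 0.08). Translation factors were divided, 23 higher and 15 lower of 51 (median 0.09), and the signs of the last 2 medians turned negative with library size as the only scaling.

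Of 16 genes of the translocon and signal recognition, which bring secretory proteins to the endoplasmic reticulum, 7 were higher and 2 lower (median 0.15). Ssr3 was highest at 0.71 ± 0.04 and Spcs3 lowest at -0.43 ± 0.05, and the pore subunit Sec61a1 lay at 0.57 ± 0.04. Oxidative phosphorylation subunits were higher in 46 of 81 cases and lower in 14 (median 0.22). The highest were isoforms of cytochrome c oxidase subunits with restricted expression. Cox6b2, known as the testis form, had 18.8, 21.1, 15.04 and 19.7 CPM in IP, against 3.45, 2.57, 1.65 and 2.59 CPM in input (2.87 ± 0.16, adjusted p = 3.22e-11). Cox4i2 lay at 2.14 ± 0.20 and Cox7a1, the heart and muscle form, at 2.12 ± 0.21. All 3 were separated between the groups. Replication-dependent histone genes, whose messenger RNAs lack a poly(A) tail, were lower in 41 of 53 cases and higher in 5 (median -0.85). Such differences by kind of RNA run through every comparison of IP with input here, and their part in the other fold changes was not tested.

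**Figure D5:**
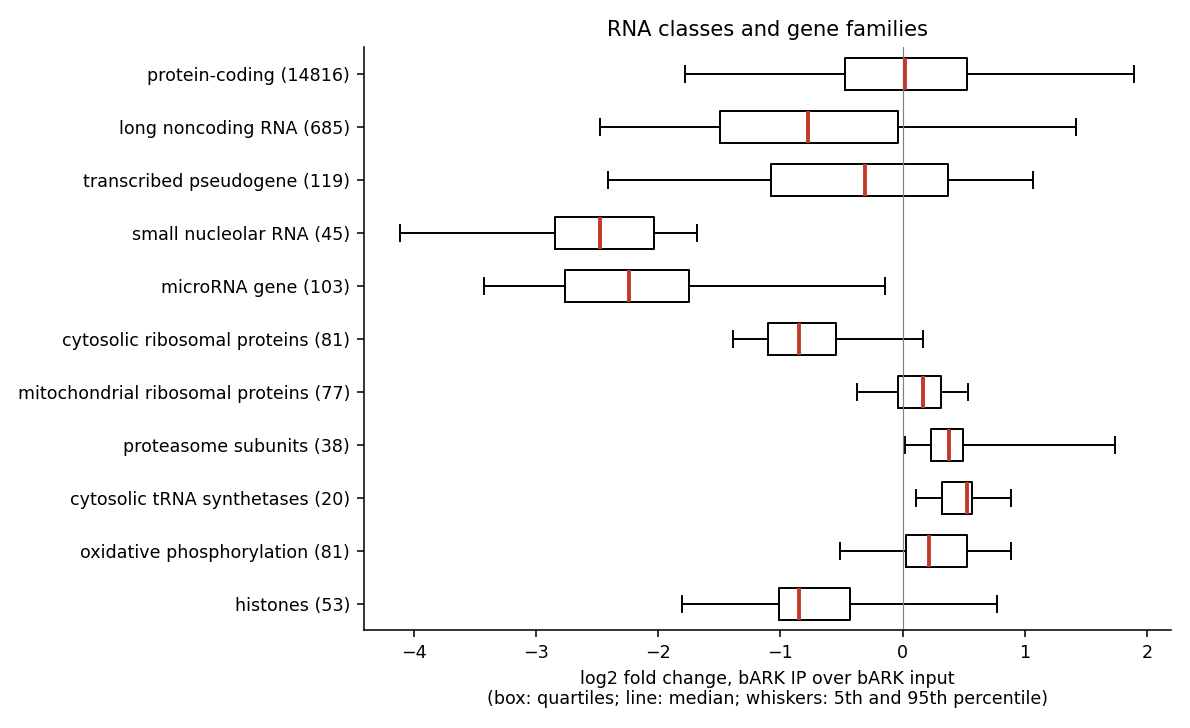
Distribution of the log2 fold change of bARK IP over bARK input by RNA class and for 6 gene families, with boxes for the quartiles, red lines for the medians and whiskers at the 5th and 95th percentiles. Small nucleolar RNA and microRNA genes lie below -1.5 for the most part, cytosolic ribosomal proteins and histones are centred near -0.85, and proteasome subunits and cytosolic tRNA synthetases lie above 0.

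In 5 bins of transcript length, from 216 to 2023 nucleotides in the lowest and from 5335 to 123179 in the highest, the median log2 fold change of protein-coding genes was 0.06, 0.09, 0.04, -0.01 and -0.06. The share called lower was 33.3% in the shortest bin and 42.2% in the longest, and the share called higher 40.7% and 35.3%. Over 19 autosomes and the X chromosome, the median ranged between -0.10 on chromosome 13 and 0.08 on chromosome 3.

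The enrichment was then set against that under bARK(D110A). No gene of 15850 passed in the test of the difference (0%), with edgeR or with DESeq2, and 951 had an unadjusted p under 0.05 with edgeR and 953 with DESeq2. The smallest adjusted p was 0.825. Astrocyte markers had a median log2 fold change of 2.56 under bARK and 2.33 under bARK(D110A). Aldh1l1 was higher by 2.76 ± 0.06 under bARK and by 2.53 ± 0.06 under bARK(D110A), a difference of 0.23 ± 0.08 (adjusted p = 0.825). Microglial markers had medians of -4.81 and -5.06, and spiny neuron markers of -1.18 and -1.01. The unadjusted p of edgeR was under 0.05 for 9 of 18 astrocyte markers and 8 of 18 fatty acid genes. It was so for 1 of 14 microglial and 0 of 12 spiny neuron markers, against 951 of all 15850 genes. Members of a list come from the same libraries, and the lists were not tested. Of the Gq pathway, Prkcd, a protein kinase C, did not pass under bARK (0.69 ± 0.38), with 18.002, 19.4, 16.9 and 15.9 CPM in bARK IP, against 10.9, 9.02, 13.1 and 10.4 CPM in bARK input, and lay at -0.32 ± 0.37 under bARK(D110A), a difference of 1.01 ± 0.53 (adjusted p = 0.834). The groups under bARK did not overlap, and Prkcd was higher in a fit of the 8 bARK libraries alone (0.66, adjusted p = 8.82e-05) and in a fit without bARK(D110A) input replicate 2 (0.68, adjusted p = 0.000804). Adrbk1 lay at 0.32 ± 0.09 under bARK and 0.12 ± 0.09 under bARK(D110A), a difference of 0.21 ± 0.13 (adjusted p = 0.849).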

How the data were processed

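The libraries were paired-end RNA-seq made from 100 ng of RNA with the Nugen Ovation RNA-Seq System V2 and messenger RNA enrichment, per the labels' protocols. The authors deposited raw read counts per gene, and bcl2fastq 2.17, STAR, HTSeq, limma and the build mm10 are named in the submitters' processing notes. The sources used give neither the annotation nor the strand setting, so overlapping genes may share reads. The table has 24060 lines for 24058 symbols, and the 2 symbols on more than 1 line were kept as separate lines. RefSeq GRCm38.p6 matched 22600 symbols by current name and 1303 by an older name, and coordinates and gene types are from there, apart from Rmrp (GENCODE M21).

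The counts of all 16 libraries were fitted as 4 groups in edgeR 4.0.16 (R 4.3.3) with TMM scaling, filterByExpr at a minimum count of 10, the robust quasi-likelihood test and Benjamini-Hochberg adjustment at 0.05, tested on simulated data beforehand. Those data held changes in far fewer genes than were called here, so they cannot show how the fit behaves at such a share of calls. TMM factors were 0.929 to 0.960 in bARK IP and 1.03 to 1.05 in bARK input. Of the 24060 lines, 15850 passed the filter. The contrasts were bARK IP minus bARK input, and the difference between this and the same contrast under bARK(D110A).

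Marker and function lists, the rule for naming genes and the alternatives were chosen with earlier results of these data known, so lists are described by counts and medians and not tested. The rule named Rpl22, Rpl22l1 and Adrbk1, the 15 largest rises and falls at 10 CPM or more without overlap, the most read genes, and of each list its first 4 members, its extremes and members against its direction. Some genes the rule names are not reported here. Other genes in the text, Aldoa, Snhg10, Hnrnpk and Mir7-1 among them, were chosen after their values were seen.

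Same-numbered IP and input libraries deviated together from their group means (correlations of 0.166, 0.225, 0.206 and 0.315 for mice 1 to 4 under bARK, against -0.204 to 0.0416 for other pairs), and the labels' numbers were taken to pair them. The alternatives were a mouse block, other scalings, DESeq2 1.42.0, other filters, the 8 bARK libraries alone and each library left out.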

Additional observations from a re-analysis of the deposited data

Results flagged for a closer look

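In each group of 4 libraries, the highest or lowest value of every gene named above was compared with the nearest of the other 3, and 37 of 556 groups held a value that stood apart by Dixon's test for 4 values. Chance flags about 1 in 20 such groups. All values are in CPM.

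IP replicate 2 held 13 of them, each above the other 3 IP libraries. Of genes typical of astrocytes or their metabolism, it had 1125 for Acsbg1, 913 for Acsl3, 4098 for Aldoc, 132 for Sox9, 382 for Psat1, 98.0 for Bckdha and 48.4 for Gbe1. Of receptors and signalling genes, it had 264 for Bmpr1a, 164 for Itpr2, 152 for Wwtr1 and 0.909 for Tgfb1. The other 2 were 8.67 for Cox4i2 and 274 for Slc5a7, the choline transporter.

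In IP replicate 3, the immune genes C1qa (2.60), Csf1r (5.04) and Cd3e (0.0255, from 1 read) and the fibroblast gene Dcn (0.356) were above the other IP libraries, and Gli2 (10.6) and Pygm (83.1) were below them. In IP replicate 4, Fezf2 (8.16) and Kcnj8 (1.59) were above the others and Abca1 (501) was below them.

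Among the input libraries, replicate 1 was above the others for Abcg1 (172), Acadl (23.0), Mrc1 (9.53) and Spcs3 (106). Input replicate 2 was above the others for Acsl3 (228), Mt1 (88.3) and Wwtr1 (30.9), and below them for Laptm5 (33.6), Nos1 (53.6), Slc11a2 (39.9) and Tgfbr1 (54.6). Input replicate 3 was above the others for Itgam (44.9) and below them for Abcc9 (12.5). Input replicate 4 was above the others for Mir568 (2.32) and Plcb4 (31.2).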

How the results depend on the processing

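The counts of genes higher and lower in bARK IP than in bARK input were 5966 and 6044. With the mouse as a replicate block they were 6308 and 6351, and 11972 of the 12010 calls were shared. They were 5849 and 6139 with DESeq2's size factors in edgeR, 5885 and 6146 with DESeq2's own test, 6010 and 6468 of 20043 genes without a filter, and 5271 and 5579 of 13972 genes at a minimum count of 50. A fit of the 8 bARK libraries gave 5877 and 6100, and 6048 and 6260 with the block. Leaving out each of the 16 libraries in turn gave 5673 to 6039 higher and 5866 to 6243 lower. In no fit was a gene called in the direction opposite to that of the full fit. The difference in enrichment from bARK(D110A) was called for no gene by edgeR or DESeq2 in any setting tried, with 612 to 1851 genes at an unadjusted p under 0.05, the most with the block.

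Of 6662 values of the 278 genes named, 57 lost the call, 37 gained it and 0 changed sign past the threshold, in 25 genes. In the fit of all 16 libraries, the block changed the call of Isl1, Jag1 and P2ry1 and of no other named gene. With library size as the only scaling, Adrbk1 (0.18, adjusted p = 0.0829), Bcat1, Clcn2, Cnp, Cspg4, Dalrd3, Gclc, Rxra, Scarna13 and Tead2 lost their calls, and Bckdhb, Isl1, Jag1 and Pdgfra were called lower. At a minimum count of 50, Clcn2, Cspg4, Dalrd3 and Tead2 lost theirs and Isl1 was called lower. The median log2 fold change of 5 lists changed sign with library size as the only scaling. Choroid plexus markers then lay at -0.07 instead of 0.08, and neuroblast and neural stem cell markers at -0.12 instead of 0.02. Metal handling genes lay at -0.06 instead of 0.07, mitochondrial aminoacyl-tRNA synthetases at -0.07 instead of 0.08 and translation factors at -0.05 instead of 0.09. The lymphocyte genes, with few or no reads in IP, are limited by depth.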
